A study of Mus musculus with 27 samples.

Results

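The miRNAs described here come from the imprinted cluster that runs from miR-379 to miR-410 on mouse chromosome 12, named after the long noncoding RNA Mirg. Members were all entries, of either arm, of 37 named hairpins in a table of 1842 mature miRNA entries. There were 73 such entries, both arms of 36 hairpins and the single entry of miR-453. Of these, 66 had enough counts to be tested, among 1470 tested entries in all. The entries left out for low counts were miR-1193-3p, miR-1193-5p, miR-1197-5p, miR-154-3p, miR-376c-5p, miR-496a-5p and miR-668-5p.

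A miRNA hairpin is cut into 2 arms, 5p and 3p, and the arm that is loaded into an Argonaute protein pairs through its seed, bases 2 to 8, with target mRNAs. The hairpins of this cluster are read from the maternal chromosome only, lie in one orientation, and are known as a set of miRNAs rich in brain and placenta. In neurons their expression is raised by activity through the factor Mef2, and several of them, among them miR-134, miR-329 and miR-381, are known from work on dendrites and synapses.

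The libraries were made from small RNA of the cortex of wild-type C57BL6 mice aged 7 to 8 weeks, 3 per group in 9 groups. Mice had either sham surgery, with anesthesia and exposed arteries but no filament, or middle cerebral artery occlusion (MCAO), a stroke model in which a filament closed the artery on the right side for 35 min. Cortex was taken from the side of the occlusion (ipsilateral) or from the other side (contralateral) after 3, 6, 12 or 24 h of recovery, giving the groups sham, contra_3h, ipsi_3h and so on to contra_24h and ipsi_24h. The 3 replicates of a group come from 3 days of surgery, and the labels do not tell whether both hemispheres of a replicate number were taken from 1 mouse. The neuronal marker miRNAs (miR-124-3p, miR-128-3p, miR-9-5p, miR-138-5p and miR-218-5p) were each counted in all 27 libraries, as befits the label cortex.

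Total counts ran from 856591 to 1903416 per library. In 2 libraries, sham replicate 2 and ipsi_6h replicate 3, miRNAs that mark epithelial and sensory tissue summed to 29811 and 25454 CPM (counts-per-million), against 391 to 960 CPM in the other 25 libraries. Counts of members called in the groups of these 2 libraries are also given without them. Levels below are CPM scaled by TMM factors, which set libraries to a common level over most entries. In ipsi_24h these factors ran from 1.18 to 1.43 and in contra_24h from 0.829 to 0.990, so the choice of scaling touches every value at 24 h. Tissue pieces were sequenced whole, so fewer cells of a type and less miRNA per cell cannot be told apart.

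Sequences of the mature miRNAs the results turn on are printed 5′ to 3′ with the seed in capitals, from RefSeq (GRCm38.p6). The first set holds the members with an adjusted p under 0.05 in a test below and, for comparison, the other arm of miR-494 and of miR-410. For miR-410-5p that result rested on a single library.
miR-494-3p: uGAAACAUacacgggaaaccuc
miR-494-5p: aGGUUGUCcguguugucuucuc
miR-300-5p: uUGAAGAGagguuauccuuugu
miR-410-5p: aGGUUGUCugugaugaguucg
miR-410-3p: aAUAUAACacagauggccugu
miR-485-3p: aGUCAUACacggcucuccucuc
The seed of miR-494-3p occurred in no other member, while miR-410-5p and miR-494-5p have one seed, GGUUGUC. The second set holds abundant members and 2 pairs that are nearly the same sequence.
miR-411-5p: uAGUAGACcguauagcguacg
miR-541-5p: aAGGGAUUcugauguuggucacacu
miR-668-3p: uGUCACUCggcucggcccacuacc
miR-300-3p: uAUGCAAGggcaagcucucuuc
miR-381-3p: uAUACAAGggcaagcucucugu
miR-379-3p: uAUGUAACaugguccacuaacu
miR-411-3p: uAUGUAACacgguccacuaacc
With positions counted from 1 at the 5′ end, miR-381-3p differs from miR-300-3p by G4A, U21G and C22U, the first of which lies in the seed. miR-411-3p differs from miR-379-3p by U10C and U22C, outside the seed they have in common.

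A mature sequence was found for 69 of the 73 members, with lengths from 19 to 25 bases. They carried 63 different seeds, 6 of which were held by a pair of members. Of these pairs, miR-410-5p with miR-494-5p and miR-379-3p with miR-411-3p are named above. The others were miR-379-5p with miR-1193-5p, miR-758-5p with miR-1197-5p, miR-453 with miR-496a-5p, and miR-376b-5p with miR-376c-5p. The members of the last pair differ by G19U alone. The sources used here do not say how reads with more than 1 matching entry were counted, so values of near-identical members are uncertain. The count ratio of miR-300-3p to miR-381-3p was between 0.783 and 1.32 in 26 libraries and 0.537 in ipsi_6h replicate 3. miR-299a-5p matched miR-299b-5p, which is not a member here, without mismatch over 21 bases at a shift of 1 base. miR-299a-3p likewise matched miR-299b-3p without mismatch over 18 bases.

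Coordinates were found for 35 of the 37 hairpins. They span 34736 bp of chromosome 12, from 109709060 to 109743795 on the plus strand (GRCm38.p6). In the GENCODE M21 annotation the Mirg gene lies at chromosome 12, 109729764 to 109749460, and 13 of the hairpins, miR-382 to miR-410, lie within it. The other 22, miR-379 to miR-539, lie before its annotated start and outside any gene on that strand other than the miRNAs themselves. Within Mirg, 4 hairpins lie in exons, 4 partly in exons and 5 in introns. Of the hairpins with an arm called in a test below, miR-494 lies at 109715318 to 109715402 and miR-300 at 109724313 to 109724391, both before Mirg. The hairpin of miR-485 lies at 109734902 to 109734974 and that of miR-410 at 109743715 to 109743795, both in exons of Mirg.

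The cluster held a nearly constant share of the miRNA pool, between 3.55% and 4.14% of the counts in each of the 27 libraries. In sham it was 3.66% ± 0.066 (SD, n = 3), in contra_24h 3.72% ± 0.187 and in ipsi_24h 3.87% ± 0.124. The 3 values were 3.61, 3.94 and 3.62% in contra_24h and 3.749, 3.860 and 3.998% in ipsi_24h, so the groups overlapped. The sham values of 3.584, 3.683 and 3.709% lay below each library of ipsi_24h, of ipsi_6h (3.83 to 4.08%) and of ipsi_12h (3.83 to 3.94%), without overlap. These 3 comparisons have the sham libraries in common. Their two-sided exact permutation p was 0.10, the value that 3 against 3 libraries without overlap always give. It thus adds nothing to the lack of overlap, and no conclusion is drawn from it. The values of ipsi_3h (3.64 to 4.14%) and of each contralateral group overlapped those of sham. The 95% Wilson interval of one library, which covers counting error only, ran from 3.71% to 3.79% for ipsi_24h replicate 1. After TMM scaling the summed level was 40978 ± 5735 CPM in contra_24h and 30335 ± 3633 CPM in ipsi_24h (SD, n = 3), and these did not overlap. The share and the scaled sum thus gave opposite orders of the 2 groups, as the plot of the summed cluster shows.

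**Figure D1:**
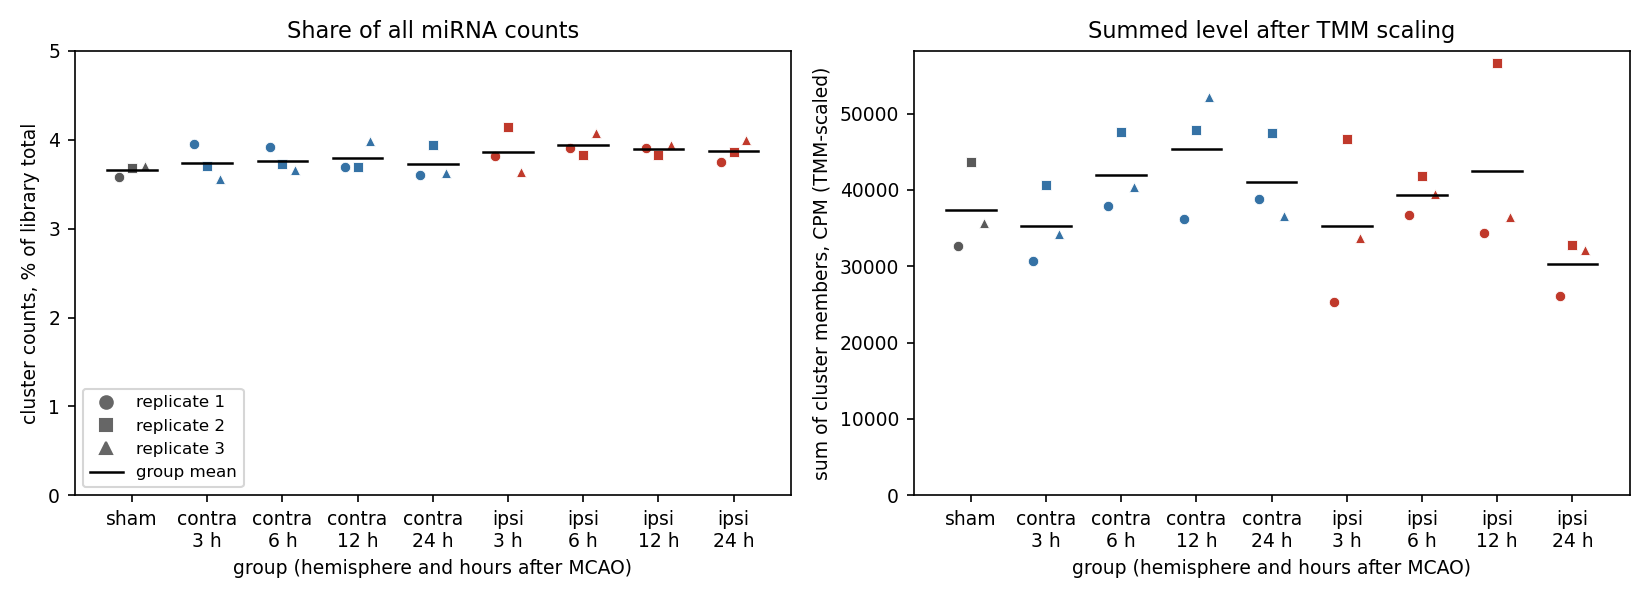
Summed counts of the 73 cluster members in each library, as a percentage of the library total (left) and in CPM after TMM scaling (right), for sham, contralateral (contra) and ipsilateral (ipsi) groups. Symbols are replicates and bars group means; the share stays between 3.55% and 4.14%, while the scaled sum is at 26159 to 32768 CPM in ipsi_24h and 36597 to 47469 CPM in contra_24h.

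Within the cluster a few hairpins gave most of the counts. The hairpins of miR-411, miR-541, miR-410, miR-300 and miR-381 together held 74.3% of all cluster counts. Summed over both arms, hairpin levels ran from 9237 CPM for miR-411 down to 6.31 CPM for miR-1193 (means over 27 libraries). miR-411-5p was the highest member, at 4626 to 14399 CPM with a median of 8660. miR-541-5p was at 3619 to 10587 CPM (median 6664) and miR-410-3p at 3149 to 9247 CPM (median 5756). Their ranges over the libraries overlapped, so the order of these members holds for their means of 9061, 6904 and 6056 CPM. miR-300-3p and miR-381-3p followed with means of 3300 and 3215 CPM, and miR-668-3p with 1359 CPM. In all, 27 members had a mean of at least 100 CPM and 12 a mean under 10 CPM.

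The 3p arm was the more abundant one in 22 of the 36 hairpins with both arms and the 5p arm in 14, by their sham means. The major arm had over 10 times the counts of the minor arm in 14 hairpins and less than 2 times in 7, among them miR-369, miR-379 and miR-666. In miR-410 the ratio was 218, and it was higher still in miR-541. The 3 members called higher in ipsilateral cortex at 24 h, as described below, were all rare in sham: miR-494-3p at 8.91 ± 2.43 CPM, miR-300-5p at 12.1 ± 7.18 CPM and miR-410-5p at 19.7 ± 3.36 CPM (SD, n = 3). miR-300-5p and miR-410-5p were the minor arms of abundant hairpins, with 0.470% and 0.456% of the counts of their hairpins.

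At 3 and 6 h none of the 66 tested members was called by edgeR's quasi-likelihood test (adjusted p under 0.05) in any of the 6 comparisons among ipsilateral cortex, contralateral cortex and sham. The background was the same, since 0% of all 1470 entries were called between the hemispheres at either time, and 0% in each comparison with sham. Between the hemispheres 2 members had an unadjusted p under 0.05 at 3 h and 1 had it at 6 h, beside 3.95% and 4.35% of all entries. Against sham these were 2 and 1 members, beside 5.85% and 3.67%. DESeq2 and a fit that blocks on the replicate number called no member, though DESeq2 gave no adjusted p to 23 of the members between the hemispheres at 3 h and to 19 against sham at 3 h. The block called 0.068% of all entries, 1 entry, higher in ipsilateral cortex than in sham at each time. Without ipsi_6h replicate 3 (at 6 h) or sham replicate 2 (against sham at 3 and 6 h) the members called were 0 as well. The median log2 fold change of the members, ipsilateral minus contralateral, was -0.03 at 3 h and -0.07 at 6 h, beside 0.01 and 0.05 for all entries. miR-494-3p was at 13.4, 11.03 and 8.62 CPM in ipsi_3h and at 6.14, 10.3 and 5.44 CPM in contra_3h, where the groups overlapped. The values in ipsi_6h were 8.95, 12.0 and 9.95 CPM, and those in contra_6h 8.83, 9.18 and 4.38 CPM, again overlapping.

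At 12 h 1 member of 66 differed between the hemispheres, miR-494-3p, which was higher in ipsilateral cortex. The background was 4.35% of all entries higher and 0% lower. miR-494 has been studied in ischemic muscle, where blocking it was followed by more vessel growth. miR-494-3p was at 32.9, 25.7 and 198 CPM in ipsi_12h and at 10.7, 6.65 and 6.82 CPM in contra_12h. Each ipsilateral library lay above each contralateral one, and replicate 3 lay far above the other 2. The log2 fold change was 3.40 ± 0.71 (SE, edgeR adjusted p = 0.0050, and 0.022 with the replicate block). Without ipsi_12h replicate 3 it was 1.84 with an edgeR adjusted p of 0.33, and with only the 6 libraries of the comparison it was 3.46 with an adjusted p of 0.17. No member was lower, and 4 members had an unadjusted p under 0.05, beside 11.2% of all entries. DESeq2, which gave no adjusted p to 4 members, called miR-494-3p alone.

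Against sham the 12 h result was the same member: miR-494-3p rose by 3.26 ± 0.69 on the log2 scale (SE, edgeR adjusted p = 0.0049), where 4.76% of all entries were higher and 0.68% lower. The sham values were 10.5, 6.11 and 10.1 CPM, all below the ipsi_12h values. Without sham replicate 2, one of the 2 libraries that stand apart, the log2 fold change was 3.05 and the adjusted p 0.053, and without ipsi_12h replicate 3 they were 1.72 and 0.26. With the replicate block a second member was called, miR-299a-5p, at 14.7 ± 9.93 CPM in ipsi_12h and 4.24 ± 1.57 CPM in sham (log2 fold change 1.80 ± 0.41, edgeR adjusted p = 0.012 with the block and 0.18 without). The block's background was 3.95% higher and 0.544% lower.

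At 24 h 3 of the 66 members were called between the hemispheres, all of them higher in ipsilateral cortex, where of all entries 11.8% were higher and 1.43% lower. The 3 were miR-494-3p, miR-300-5p and miR-410-5p, so the share of members called higher was below that of the whole table. Their values differed in how far they rested on single libraries. For 12 members the unadjusted p was under 0.05, against 23.8% of all entries, and DESeq2 called 3 higher and 3 lower, among 11.4% and 2.86% of all entries with an adjusted p. Without ipsi_24h replicate 3 edgeR called 5 members, with miR-667-5p and miR-668-5p added. miR-668-5p was left out of the main fit for low counts and entered the test in this refit. It had 24 and 12 counts in ipsi_24h replicates 1 and 2 and 1 to 9 in the libraries of the other groups. Its call thus rests on the libraries that let it pass the filter.

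miR-494-3p had the highest fold change of the cluster. It was at 542, 243 and 50.9 CPM in ipsi_24h and at 10.4, 6.72 and 7.00 CPM in contra_24h. The lowest ipsilateral library was thus several times above the highest contralateral one, while the 3 ipsilateral libraries spread over a wide range. The means were 279 ± 247 and 8.03 ± 2.03 CPM (SD, n = 3), and the log2 fold change was 5.10 ± 0.73 (SE, edgeR adjusted p = 4.4e-05). Over 13 alternative fits it stayed between 4.18 and 5.66, with adjusted p up to 0.0013. In the 21 libraries other than ipsi_12h and ipsi_24h it was between 4.38 and 13.4 CPM, which stood for 4 to 20 counts per library.

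The other arm of the hairpin did not follow. miR-494-5p was at 5.46, 4.86 and 8.49 CPM in ipsi_24h and at 9.42, 3.36 and 10.5 CPM in contra_24h. These groups overlapped (log2 difference -0.27 ± 0.45, edgeR adjusted p = 0.77). Over all 27 libraries miR-494-5p was between 1.23 and 10.5 CPM, a level near that of 3 counts (1.23 to 4.09 CPM depending on the library), so small changes were not detectable at this depth. The plot of both arms shows the 3p arm apart in the late ipsilateral groups and the 5p arm level.

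**Figure D2:**
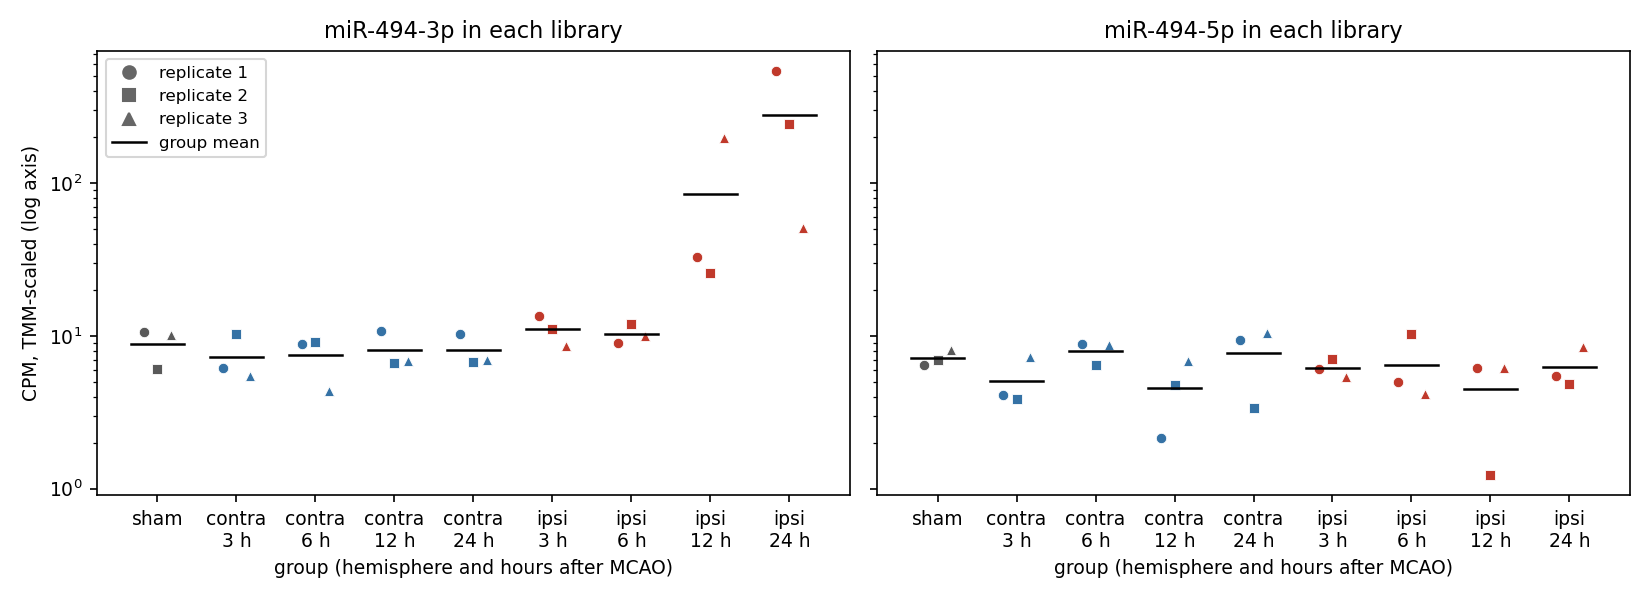
Level of miR-494-3p (left) and miR-494-5p (right) in each library, in TMM-scaled CPM on a log axis, by group. Symbols are replicates and bars group means; miR-494-3p is at 25.7 to 542 CPM in the 6 libraries of ipsi_12h and ipsi_24h and at 4.38 to 13.4 CPM in the other 21.

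miR-300-5p, the rare arm of the miR-300 hairpin, was the second called member at 24 h. It was at 46.4, 29.1 and 20.8 CPM in ipsi_24h and at 9.42, 9.24 and 5.83 CPM in contra_24h. The groups did not overlap, and the log2 fold change was 1.95 ± 0.39 (SE, edgeR adjusted p = 7.8e-04). In 13 alternative fits it was between 1.58 and 2.48, each with an adjusted p of at most 0.014. At 12 h its values of 19.5, 18.4 and 29.1 CPM in ipsi_12h also lay above those of 5.34, 9.49 and 15.0 CPM in contra_12h, with an adjusted p of 0.12 by edgeR. The abundant arm went the other way: miR-300-3p was at 2220, 2746 and 2468 CPM in ipsi_24h and at 3408, 4618 and 2796 CPM in contra_24h (log2 fold change -0.54 ± 0.24, edgeR adjusted p = 0.17, and 0.038 with the replicate block).

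miR-410-5p, the rare arm of miR-410, was called on the strength of 1 library. It was at 169, 27.8 and 14.7 CPM in ipsi_24h and at 28.3, 18.5 and 14.0 CPM in contra_24h, and the groups overlapped. The log2 fold change was 1.79 ± 0.59 (SE, edgeR adjusted p = 0.045). Without ipsi_24h replicate 1 it was 0.07, with an adjusted p of 0.97. The call was also lost without any one of the contra_24h libraries (edgeR adjusted p from 0.061 to 0.15), without ipsi_6h replicate 3 (0.054), without a filter on low counts (0.051) and in the fit of the 6 libraries alone (0.19). In the 26 libraries other than ipsi_24h replicate 1 miR-410-5p was between 8.58 and 34.4 CPM. miR-410-3p, its abundant partner, was at 4570, 6033 and 4878 CPM in ipsi_24h and at 6269, 8336 and 5756 CPM in contra_24h, with overlapping groups (log2 fold change -0.40 ± 0.31, edgeR adjusted p = 0.48).

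The library with the highest values of miR-494-3p, miR-300-5p and miR-410-5p was in each case ipsi_24h replicate 1. In it the rare entries outside the cluster, those with means under 100 CPM, took 7.08% of all counts, against 3.36% and 3.11% in the other ipsi_24h libraries and 1.69 to 2.05% in contra_24h. The part of this shift in the values of the 3 members was not tested.

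Against sham at 24 h, 3 members were higher and 1 lower, where 11.3% of all entries were higher and 1.36% lower. The higher ones were again miR-494-3p (log2 fold change 4.95 ± 0.72, edgeR adjusted p = 4.3e-05), miR-300-5p (1.44 ± 0.37, 0.0085) and miR-410-5p (1.83 ± 0.59, 0.039). This comparison has the ipsi_24h libraries in common with that between the hemispheres. Without sham replicate 2 the call of miR-494-3p held at 4.74 (edgeR adjusted p = 0.0016), while miR-300-5p was at 1.30 (0.061) and miR-410-5p at 1.78 (0.15). Those 2 also lost their calls without sham replicate 1 (adjusted p 0.091 and 0.089) or ipsi_24h replicate 1 (0.12 and 0.95), and miR-410-5p without sham replicate 3 (0.12). In all, 1 member was called without ipsi_24h replicate 1 and 7 without ipsi_24h replicate 3. The 7 include miR-668-5p, which the main fit left out for low counts.

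The member called lower against sham was miR-485-3p. Its hairpin lies in an exon of Mirg, and its partner arm miR-485-5p is known for targeting the synaptic vesicle protein SV2A. miR-485-3p was at 80.5, 144 and 137 CPM in ipsi_24h and at 274, 278 and 273 CPM in sham. The groups did not overlap, and the log2 fold change was -1.19 ± 0.32 (SE, edgeR adjusted p = 0.0097). Without ipsi_24h replicate 1 it was -0.97 with an adjusted p of 0.11, and without sham replicate 2 it was -1.19 with an adjusted p of 0.036. In the fit of the 6 libraries alone the call was lost (edgeR adjusted p = 0.058), as were those of miR-300-5p (0.082) and miR-410-5p (0.20) against sham. In contra_24h it was at 179, 307 and 196 CPM, all above ipsi_24h, and the difference between hemispheres was -0.92 ± 0.31 (edgeR adjusted p = 0.053, and 0.011 with the replicate block). miR-485-5p was at 450, 390 and 400 CPM in ipsi_24h and at 658, 627 and 611 CPM in contra_24h, without overlap (log2 fold change -0.61 ± 0.24, edgeR adjusted p = 0.11, and 0.024 with the block).

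**Figure D3:**
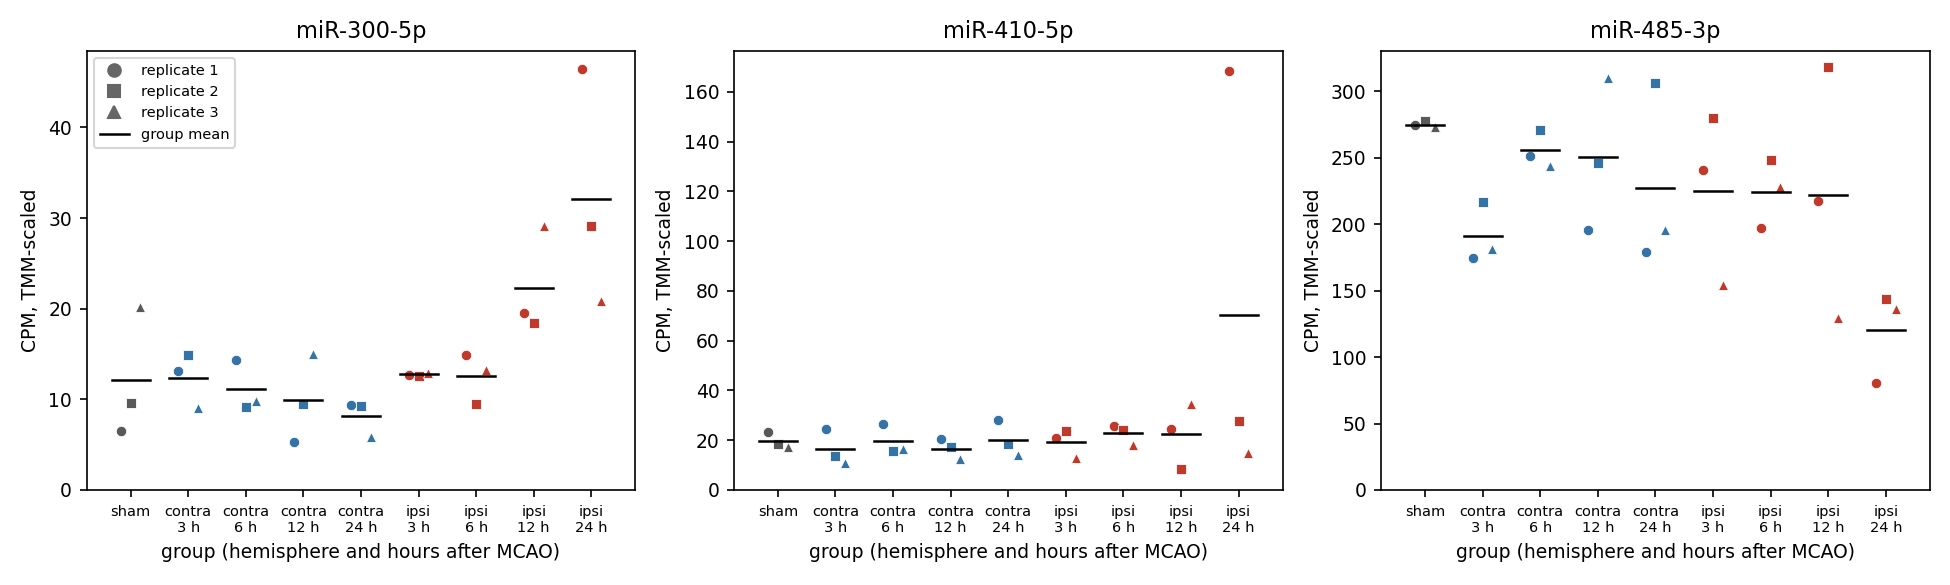
Level of miR-300-5p, miR-410-5p and miR-485-3p in each library, in TMM-scaled CPM, by group. Symbols are replicates and bars group means; miR-300-5p is above the contra_24h libraries in all 3 ipsi_24h libraries, miR-410-5p is high in 1 library at 169 CPM, and miR-485-3p is at 80.5 to 144 CPM in ipsi_24h and about 275 CPM in sham.

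With a block for the replicate number, which takes out differences between days of surgery, 10 members were called between the hemispheres at 24 h, 3 higher and 7 lower. The background of that fit was 13.5% higher and 6.53% lower. The 3 higher ones were those named above (edgeR adjusted p with the block 2.6e-04 for miR-494-3p, 8.3e-04 for miR-300-5p and 0.035 for miR-410-5p). The lower ones were miR-411-5p (log2 fold change -0.63, edgeR adjusted p = 0.0069 with the block), miR-485-3p (-0.91, 0.011), miR-369-5p (-0.66, 0.013), miR-409-3p (-0.60, 0.016), miR-485-5p (-0.61, 0.024), miR-376b-5p (-0.65, 0.030) and miR-300-3p (-0.52, 0.038). Each of them had a mean of at least 100 CPM. At that level the block called 7 of 27 members lower, beside 88 of all 282 entries. Against sham the block called 4 higher, with miR-299a-5p added (1.31, adjusted p = 0.030), and 3 lower, miR-485-3p (-1.22, 0.0011), miR-409-3p (-0.53, 0.036) and miR-487b-3p (-0.67, 0.036). Its background was 14.1% higher and 4.69% lower.

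miR-411-5p, the highest member, was among those called with the block alone. It was at 4626, 8058 and 7152 CPM in ipsi_24h and at 9256, 10995 and 9566 CPM in contra_24h. The groups did not overlap. Without the block the log2 fold change was -0.59 ± 0.29 with an edgeR adjusted p of 0.21, and under library totals alone it was -0.12 with an adjusted p of 0.60. In sham the values were 7454, 10943 and 8288 CPM, which overlap those of ipsi_24h.

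Most members of the cluster had log2 values below 0 at 24 h, as had most abundant entries of the table. The median log2 fold change of the 66 members, ipsilateral minus contralateral, was -0.36, with 51 below 0, beside 0.08 for all entries. Among members with means of at least 100 CPM the median was -0.44, with 25 of 27 below 0, and among all 282 entries of that level it was -0.47, with 79.4% below 0. For rarer entries the medians were -0.21 over 39 members and 0.20 over all rarer entries. The groups did not overlap, with ipsilateral cortex lower, for 14 of the 66 members (background 12%), and with ipsilateral cortex higher for 4 (background 16.3%). Of the abundant members 44.4% were lower without overlap, and of all abundant entries 40.4%.

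Scaling by library totals alone moved the median of all entries between the hemispheres at 24 h from 0.08 to 0.57. The median of the members was then 0.14, with 20 of 66 below 0, beside 0.57 for all entries, and with TMM factors from abundant entries it was -0.00086 beside 0.45. Under either scaling the members called between the hemispheres at 24 h were 6 higher and none lower, as miR-667-5p, miR-668-3p and miR-758-5p were added. Of all entries 15.4% were then called higher and 0% lower under totals, and 14.1% and 0.272% with factors from abundant entries. Directions of the abundant members at 24 h therefore hold for TMM, while miR-494-3p, miR-300-5p and miR-410-5p were higher under each of the 3 scalings.

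**Figure D4:**
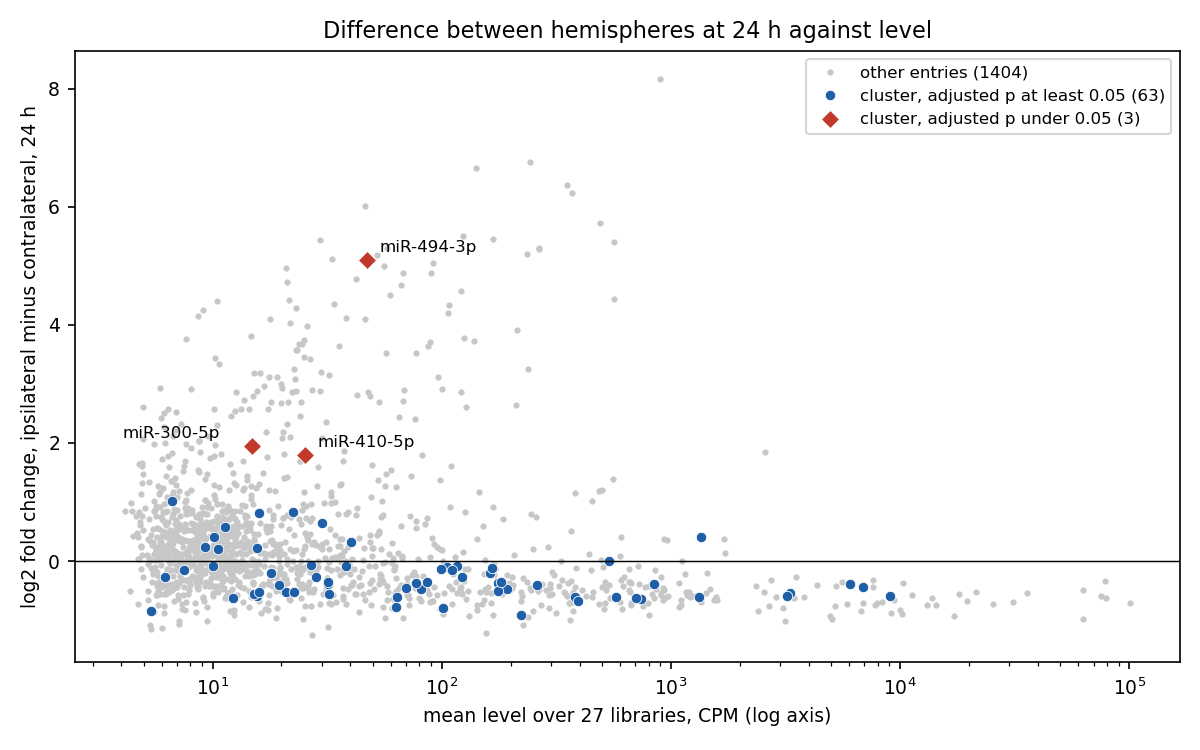
Log2 fold change between ipsilateral and contralateral cortex at 24 h (TMM scaling) against the mean level in CPM on a log axis, for 1470 tested entries. Cluster members are blue, or red where the edgeR adjusted p was under 0.05; 25 of the 27 members with means of at least 100 CPM lie below 0, within the band of the other abundant entries.

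The remaining members named for their level or their known roles were not called between the hemispheres at 24 h. miR-541-5p was at 3619, 5418 and 6664 CPM in ipsi_24h and at 7018, 7406 and 6860 CPM in contra_24h, without overlap (log2 fold change -0.44 ± 0.26, edgeR adjusted p = 0.31). miR-381-3p, known to be needed for activity-driven dendrite growth in cultured neurons, was at 1887, 2132 and 2069 CPM against 3453, 3486 and 2209 CPM, also without overlap (-0.59 ± 0.26, adjusted p = 0.17). miR-668-3p was the abundant member with the highest value, at 2387, 1602 and 1149 CPM against 1280, 1505 and 1078 CPM with overlapping groups (0.41 ± 0.22, edgeR adjusted p = 0.27), and at 0.94 with an adjusted p of 0.0070 under library totals alone. These 3 had thus no call under TMM, and for miR-668-3p the call depended on the scaling.

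miR-134-5p, known for limiting dendritic spine size through Limk1, was at 79.2, 112 and 133 CPM in ipsi_24h and at 110, 121 and 114 CPM in contra_24h. The groups overlapped, and the log2 difference was -0.09 ± 0.26 (edgeR adjusted p = 0.88). miR-329-3p was at 13.7, 21.5 and 39.4 CPM against 21.7, 44.5 and 30.3 CPM, and miR-379-5p at 58.0, 88.8 and 153 CPM against 88.5, 132 and 113 CPM. Both pairs of groups overlapped (edgeR adjusted p = 0.74 and 0.88). For these 3 members no difference between the hemispheres was detectable at this depth and replicate number, and under library totals alone their values lay above 0.

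Because the 2 arms of a hairpin are counted in the same library, their ratio needs no scaling. Of the 30 cluster hairpins with both arms tested, limma called 2 for a shift of the 5p to 3p balance between the hemispheres at 24 h, miR-494 and miR-300, among 10.8% of all 498 hairpins. For miR-494 the log2 ratio of 5p to 3p changed by -4.71 ± 0.77, toward the 3p arm (SE, limma adjusted p = 1.0e-04). For miR-300 it changed by 2.38 ± 0.41, toward the 5p arm (limma adjusted p = 1.9e-04). When both arms had to have a mean of at least 10 counts, miR-494 was no longer tested and miR-300 was called alone (limma adjusted p = 2.8e-04). With the replicate block miR-487b (1.25, limma adjusted p = 0.011) and miR-758 (1.67, 0.015) were added, both toward the 5p arm.

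At 12 h miR-494 was the 1 cluster hairpin called for its arm balance between the hemispheres, with a log2 difference of -2.85 ± 0.77 (limma adjusted p = 0.028), among 4.02% of all hairpins. Its 5p arm had only 6, 1 and 7 counts in ipsi_12h and 2, 5 and 5 in contra_12h. The 3p arm had 32, 21 and 224 counts in ipsi_12h, so replicate 3 stood far above the others. miR-300 had 1.35 ± 0.41 at that time (limma adjusted p = 0.074, and 0.031 with the block). Against sham at 24 h 3 cluster hairpins were called among 11% of all, miR-494 (-4.61 ± 0.77), miR-300 (1.87 ± 0.41) and miR-485 (0.93 ± 0.30, limma adjusted p = 0.045). The call of miR-485 was lost without any one sham library (limma adjusted p from 0.062 to 0.25) and without ipsi_24h replicate 1 (0.44). In miR-485 both arms were lower in ipsi_24h than in sham by their means, the 3p arm by more.

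Over the 30 hairpins the minor arm had a higher log2 fold change than the major arm in 21 at 24 h (70%), beside 58.8% of all 498 hairpins. The medians were -0.47 for the major arms, with 28 of 30 below 0, and -0.18 for the minor arms. Along the chromosome, called arms lay among uncalled ones. The neighbours of miR-494 are miR-329 and miR-679, none of whose arms was called, and the arms of miR-381, next to miR-300, were not called either.

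**Figure D5:**
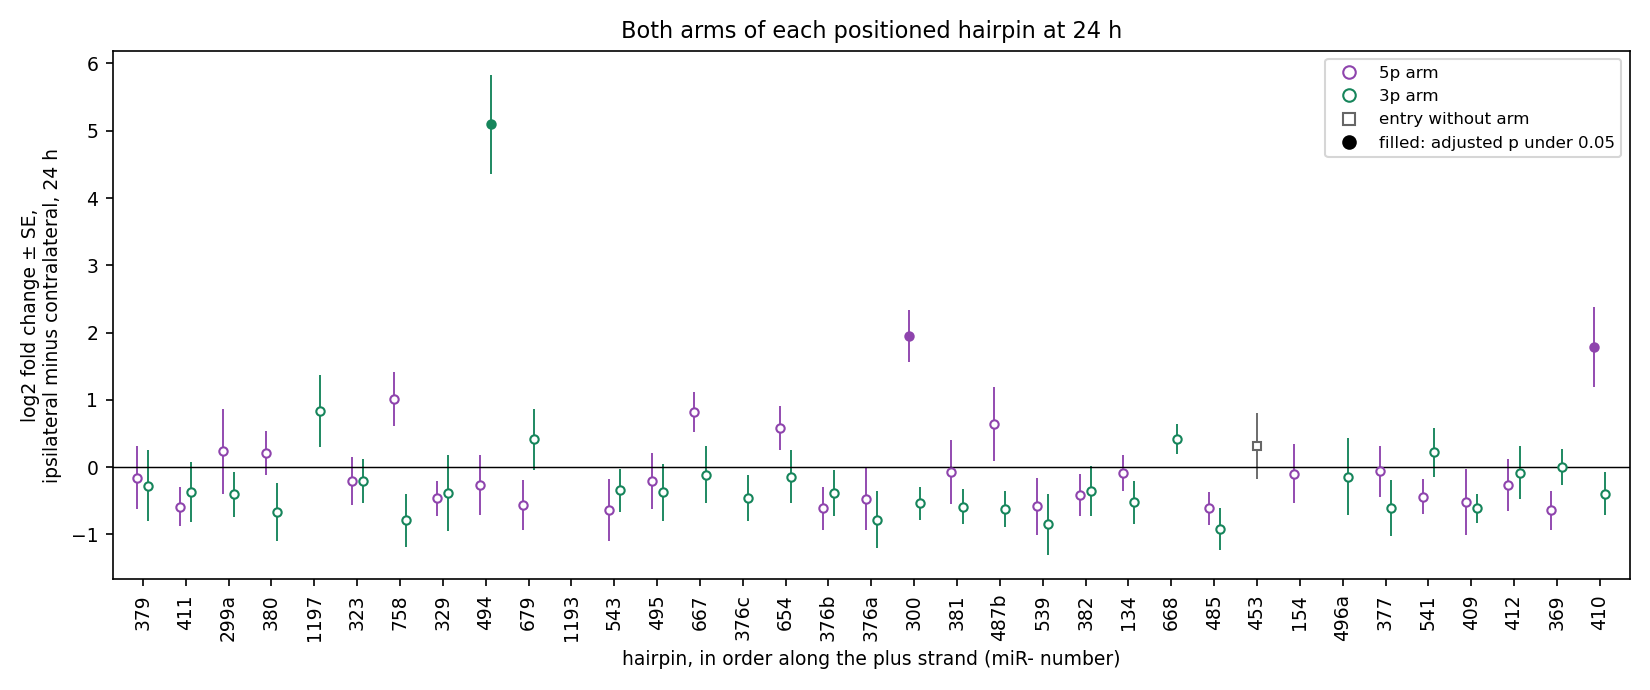
Log2 fold change ± SE between ipsilateral and contralateral cortex at 24 h for the 5p and 3p arms of the 35 hairpins with coordinates, in their order on the plus strand. Filled points had an edgeR adjusted p under 0.05. Under the TMM scaling shown, 1 arm each of miR-494, miR-300 and miR-410 stands above the rest, while their partner arms lie below 0.

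No member was called between contralateral cortex and sham. This held at 3, 6, 12 and 24 h by edgeR, with or without the replicate block, and by DESeq2, while 0% of all entries were called in each of these comparisons. The members with an unadjusted p under 0.05 were 0, 1, 1 and 2 at the 4 times, beside 1.77%, 2.31%, 4.35% and 2.24% of all entries. Without sham replicate 2 the members called at each time were 0. The median log2 fold change of the members at 24 h, contralateral minus sham, was 0.03, beside -0.03 for all entries.

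Whether the difference between the hemispheres changed over the 4 times was asked of each entry with a joint F test. miR-494-3p was the 1 member called (edgeR adjusted p = 0.038), among 0.612% of all entries. The next smallest adjusted p of a member was 0.23. The call passed in 6 of 29 alternative fits. It was lost with the replicate block (edgeR adjusted p = 0.15), with library totals alone (0.10), with TMM factors from abundant entries (0.090), and without any one of 20 of the 24 libraries (0.059 to 0.14). It held in DESeq2 (adjusted p = 2.8e-04), without a filter on low counts (0.035), and without any 1 of the ipsi_12h libraries or ipsi_24h replicate 3.

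The other miRNAs of the imprinted domain include those of the Rtl1 antisense transcript, Meg3 and Rian. Of their 36 entries 34 were tested. Between the hemispheres at 24 h 4 of the 34 were higher and none lower, near the background of 11.8% and 1.43%, with a median log2 fold change of -0.36, the value also found for the cluster. The fit with the block called 5 higher and 5 lower, beside 13.5% and 6.53% of all entries. At 12 h 2 were higher, beside 4.35%. They held 10.1% to 14.2% of the counts per library.

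None of the lists of cell type markers had a member called between the hemispheres at 24 h, where of all entries 11.8% were higher and 1.43% lower. With 1 to 6 markers tested per list, the absence of calls says little about cell types. The 5 neuronal markers summed to 68097 to 101075 CPM in ipsi_24h and to 106755 to 161733 CPM in contra_24h, with a median log2 fold change of -0.55 under TMM. Lower medians were found for 3 vessel markers (-0.61), 2 oligodendrocyte markers (-0.60) and 1 muscle marker (-0.83). The medians were -0.36 for 3 erythrocyte markers, -0.18 for 4 leukocyte markers, -0.11 for 6 epithelial and sensory markers and 0.16 for 2 choroid plexus markers. The abundant cluster members, with their median of -0.44, thus lay among these lists, and the part of the marked cells in their values was not tested.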

How the data were processed

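Small RNA was sequenced from 27 cortex libraries. Inserts of 15 to 35 bp were selected in the TruSeq small RNA workflow and read over 69 bp, per the labels' protocols. The authors deposited whole-number raw counts per mature miRNA entry, and all columns were used. The submitters' processing notes list Novoalign and edgeR, with neither version nor purpose. Genome build, miRNA release and the rule for reads with more than 1 match: not given in the sources used here.

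The members and lists were chosen with earlier results of these data known. Members were found by hairpin name. Those given by library are the called members and their other arms, the 6 most abundant, and 5 known from neuronal work. The test was edgeR's quasi-likelihood test (edgeR 4.0.16, R 4.3.3) with TMM factors and filterByExpr, with 1 mean per group over 27 libraries and 18 residual degrees of freedom, adjusted by Benjamini-Hochberg over 1470 entries. DESeq2 1.42.0 was an alternative. Arm balance was tested with limma 3.58.1 on log2 of the 5p over the 3p count, each with 0.5 added. The fits were tested on simulated data. Alternatives were a replicate block, other scalings, no filter, only the 6 libraries compared, and leaving out single libraries. Fits without ipsi_6h replicate 3 for other times, and the alternatives for arm balance against sham, were chosen after seeing the data. Sequences and positions are from RefSeq (GRCm38.p6) and the Mirg gene from GENCODE M21.

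Replicate numbers mark days of surgery per the series' design text, so they pair libraries across groups. As a check, the deviations of library pairs from their group means had a mean correlation of 0.39 for the 108 pairs of equal number and of -0.19 for the 216 others. No 2 replicates of a group agreed within sampling noise (smallest chi-square per degree of freedom 11.2).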

Additional observations from a re-analysis of the deposited data

Results flagged for a closer look

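The difference between the hemispheres of miR-494-3p changed between the 4 recovery times by a joint F test (edgeR adjusted p = 0.038), with no call at 3 or 6 h, a log2 value of 3.40 after 12 h and one of 5.10 after 24 h. With the replicate block the edgeR adjusted p was 0.15. Over 29 alternative fits the adjusted p lay between 2.8e-04 (DESeq2) and 0.15, and it was under 0.05 in only 6 of them. No test for single outlying libraries was made in these groups of 3.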

How the results depend on the processing

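Of 247 alternative values of the counts and medians, 202 stayed within 1.5 times or within 1 SD of the value reported. The replicate block, in which replicate number stands for the day of surgery, moved the members called to 2 at 12 h against sham, 10 at 24 h between the hemispheres and 7 against sham, 0 in the joint test, and 4 hairpins for arm balance. For arm balance it also added miR-300 at 12 h between the hemispheres, and miR-299a and miR-487b at 24 h against sham (limma adjusted p = 0.045 and 0.020), where 5 hairpins were then called. In the rest of the imprinted domain it called 5 higher and 5 lower between the hemispheres at 24 h, and 6 and 3 against sham in place of 4 and 0. It changed no other call of the cluster. DESeq2 gave 6 between the hemispheres at 24 h. With only the 6 libraries compared, 0 were called at 12 h in either comparison and 1 at 24 h against sham. Library totals and TMM from abundant entries each gave 6 at 24 h between the hemispheres and 0 in the joint test, with medians of 0.14 and -0.00086. Under totals the 24 h log2 values of miR-541-5p (0.032), miR-410-3p (0.10), miR-134-5p (0.38), miR-329-3p (0.11), miR-379-5p (0.32) and miR-494-5p (0.19) lay above 0, and under TMM from abundant entries those of miR-134-5p (0.25), miR-379-5p (0.17) and miR-494-5p (0.063). None of these 9 values was called. A mean of at least 10 counts per arm left 1 hairpin called for arm balance. The cause of these changes was not tested.

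Leaving out single libraries gave 0 to 1 members at 12 h between the hemispheres and against sham, and 2 to 5 and 1 to 7 at 24 h. The highest counts at 24 h, without ipsi_24h replicate 3, include miR-668-5p, which the main fit left out for low counts. The joint test gave 0 to 1, and arm balance 2 to 3 hairpins in either comparison. Between the hemispheres at 12 h the log2 value of miR-494-5p then ranged from -0.26 to 0.47 and that of miR-485-3p from -0.53 to 0.090 (highest without ipsi_12h replicate 3). Against sham at 12 h miR-410-5p ranged from -0.22, without ipsi_12h replicate 3, to 0.59. At 24 h miR-134-5p ranged from -0.27 to 0.084 and miR-379-5p from -0.60 to 0.11, the highest without ipsi_24h replicate 1. Rare arms near 3 counts per library limit what can be seen.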

Other observations

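The cluster also differed between days of surgery, a test chosen after the data were seen. By edgeR's F test of the replicate number within groups, 28 of the 66 members were called (42.4%), beside 25% of all entries. Of the 28, 25 were lowest in replicate 1 and 3 were highest there, miR-487b-5p, miR-679-5p and miR-410-5p. miR-496a-3p had means of 51.3, 144 and 103 CPM over the 9 libraries of replicates 1, 2 and 3 (edgeR adjusted p = 2.6e-07), and replicate 1 was lowest in 9 of 9 groups. miR-379-3p had 67.8, 172 and 128 CPM (8.7e-07) and miR-411-3p, its near-copy, 107, 214 and 208 CPM (1.4e-06), also lowest in replicate 1 in 9 of 9 groups. In all, 11 members had replicate 1 lowest in each group. These directions were not set beside those of all called entries, so they are not shown to be particular to the cluster.

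This pattern depends on the scaling. With library totals alone 27 members were called, 13 of them lowest in replicate 1, beside 50.9% of all entries, and with TMM factors from abundant entries 25 and 15, beside 39.0%. Mean TMM factors were 1.17, 0.867 and 1.02 for replicates 1, 2 and 3. Without sham replicate 2, without ipsi_6h replicate 3 or without the ipsi_24h group the members called were 26, 29 and 28. The cluster's share of the library total did not follow the day, at 3.79% ± 0.140, 3.82% ± 0.148 and 3.80% ± 0.200 (SD over 9 libraries). The labels do not say what else differed between the days.

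Abundant members also varied together. Over the 27 libraries the median pairwise correlation of their deviations from the group means was 0.54 for the 27 members with means of at least 100 CPM and 0.22 for all 282 such entries. The points share library depth, scaling and day of surgery.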
